A study of Mus musculus with 4 samples.

Results

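A set of 10 glycolytic enzyme genes was followed across 4 two-colour arrays of the embryonic mouse atrioventricular canal. They are Hk2, Pfkl, Pfkp, Aldoa, Aldoc, Tpi1, Pgk1, Pgam1, Eno1 and Ldha, chosen by gene name among the probes that were not controls, and they make 10 of the 19091 genes tested. They were represented by 16 probes, and all 10 genes passed the filter on dim probes. The mutant tissue came from Tbx3 mutant embryos, described in the series design as hypomorphic, at e10.5 (days after mating) on a background given as 50%Sv129; 50% C57Bl6. The control tissue came from wild type control embryos of the same age and background. On each array 1 mutant pool carried Cy5 (red) and 1 control pool carried Cy3 (green), and each pool held the dissected canals of 5 hearts, so no value belongs to a single embryo; the labels call the 4 arrays biological replicates. How the hypomorphic allele lowers Tbx3 and how many litters contributed were not given in the sources used here. The dyes were never exchanged, so a gene-specific dye effect and the genotype cannot be told apart.

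Glycolysis splits glucose into pyruvate in the cytosol. Hexokinase and phosphofructokinase commit sugar to the pathway, aldolase and triose phosphate isomerase make triose phosphates, and phosphoglycerate kinase, phosphoglycerate mutase and enolase carry these on towards pyruvate, with ATP formed at the kinase step. Lactate dehydrogenase then turns pyruvate into lactate, which restores the NAD+ that the pathway needs. The early embryonic heart is known to depend strongly on glycolysis, and several of these genes are textbook targets of the hypoxia-inducible factors. The canal lies between the atria and ventricles, holds the endocardial cushions and gives rise to part of the conduction system. Tbx3 encodes a T-box repressor that keeps chamber genes off in this tissue.

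Of the 10 genes, 9 had a mean log2 ratio of mutant over control above 0.2, and Eno1 stood at 0.11. The highest means belonged to Pgk1, Ldha, Aldoa and Hk2, with ratios of 2.41-fold, 2.24-fold, 1.96-fold and 1.79-fold. With the scanner software's own log ratio the size of the bright genes was smaller: log2 means were 0.97 for Pgk1, 0.74 for Ldha, 0.49 for Aldoa, 0.27 for Tpi1 and 0.24 for Pgam1, while Hk2 stood at 0.82 and Aldoc at 0.58. No member passed an adjusted p of 0.05 in the limma fit over all genes, so none is called changed on the 4 arrays. The median of the 10 mean ratios was 0.52, against 0.00 for all genes tested. Bright probes as a class also leaned towards the mutant, and 5 of the 10 genes are among them, so each ratio is set beside other genes of the same brightness.

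Tbx3 itself was lower in the mutant pools on all 4 arrays, with log2 ratios of -1.35, -1.40, -1.43 and -1.21 and a mean of -1.35 ± 0.10 (SD, n = 4; limma adjusted p = 0.0454, and 0.0298 without array 2). The deposited signals had array medians of 175.1 to 232.5 in the mutant channel and of 117.9 to 133.5 in the control channel before normalization. Array 2 stood apart from the rest: the SD of its log2 ratios over all genes was 0.49, against 0.26 to 0.29 on the other arrays. Its ratios correlated with those of the others at Pearson's r of -0.06 to 0.08 across genes, whereas the other pairs gave 0.25 to 0.66. These r values are across genes, which are not independent replicates. The members' results are therefore given with and without array 2.

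Promoter sequences are shown first because several members are textbook targets of the same factors. A window of 300 bases, 250 before and 50 after each annotated start, was read from the RefSeq promoter table of build GRCm38.p6, in which all 10 genes matched. Capitals mark ACGTG or its reverse complement CACGT, a form of the core of the hypoxia response element. The other form, GCGTG, is not marked. The windows of Ldha (the first of 2 annotated), Pgk1 and Hk2 are followed by the first of 3 for Eno1, the gene with the smallest ratio. Ldha, Pgk1 and Hk2 had no higher probe among the 50 nearest in brightness. The same holds for Pfkp, whose window held no ACGTG and is not printed. Whether a match goes with a higher ratio was not tested.
Ldha, chr7:46845554-46845853, plus strand: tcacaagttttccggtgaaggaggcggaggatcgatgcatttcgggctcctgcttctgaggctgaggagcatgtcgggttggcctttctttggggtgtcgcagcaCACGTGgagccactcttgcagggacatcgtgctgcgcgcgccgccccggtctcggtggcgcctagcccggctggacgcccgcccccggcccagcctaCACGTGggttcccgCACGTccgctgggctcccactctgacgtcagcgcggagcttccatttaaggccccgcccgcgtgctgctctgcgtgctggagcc
Pgk1, chrX:106186850-106187149, plus strand: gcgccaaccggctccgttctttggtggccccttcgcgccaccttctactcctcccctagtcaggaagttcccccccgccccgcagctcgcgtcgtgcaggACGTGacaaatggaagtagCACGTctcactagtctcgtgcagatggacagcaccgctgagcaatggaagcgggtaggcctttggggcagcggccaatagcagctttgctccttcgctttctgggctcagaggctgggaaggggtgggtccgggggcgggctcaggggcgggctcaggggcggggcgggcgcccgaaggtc
Hk2, chr6:82774405-82774704, minus strand: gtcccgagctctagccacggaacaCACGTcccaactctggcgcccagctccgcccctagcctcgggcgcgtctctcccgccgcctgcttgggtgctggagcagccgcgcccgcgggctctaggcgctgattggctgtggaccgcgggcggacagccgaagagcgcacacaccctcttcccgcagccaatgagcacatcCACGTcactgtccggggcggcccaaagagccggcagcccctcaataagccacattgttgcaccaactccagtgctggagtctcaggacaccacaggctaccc
Eno1, chr4:150236458-150236757, plus strand: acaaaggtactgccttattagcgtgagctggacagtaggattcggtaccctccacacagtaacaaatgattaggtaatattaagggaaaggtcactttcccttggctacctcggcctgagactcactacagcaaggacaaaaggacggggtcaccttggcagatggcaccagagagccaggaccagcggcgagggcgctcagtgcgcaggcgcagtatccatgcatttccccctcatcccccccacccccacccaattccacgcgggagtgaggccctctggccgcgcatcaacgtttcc
The printed Ldha window held the palindrome CACGTG, which contains both orientations, at 145 and 48 bases before the start, and CACGT at 34 bases before it. The second annotated Ldha window held no ACGTG on either strand. The Pgk1 window held ACGTG at 150 and CACGT at 131 bases before the start. In the Hk2 window CACGT stood 226 and 52 bases before the start. None of the 3 annotated Eno1 windows held ACGTG on either strand, but each held 2 matches once GCGTG was also allowed.

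Of the 10 genes, 6 (Hk2, Aldoa, Aldoc, Pgk1, Pgam1 and Ldha) held ACGTG on either strand in at least 1 window, against 21.8% of the 27025 genes in the table. By window the share was 43.8% (7 of 16) for the members, against 19.6% of 32851 windows. For Pgam1 the match stood 114 bases before the start, for Aldoc 28 bases after it, and for Aldoa 126 bases before the second of its 3 annotated starts. The same Aldoa site stood 202 bases before the third start. The windows of these starts overlap, so that site counts for both in the share by window. Pfkl, Pfkp, Tpi1 and Eno1 held no ACGTG match. With GCGTG also allowed, the count was 9 of 10 members, all but Tpi1, against 46.7% of genes. The palindrome CACGTG, which is also an E-box, occurred in 7.15% of windows and among the members only in the first of the 2 Ldha windows. A match describes letters and not a bound site.

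**Figure D1:**
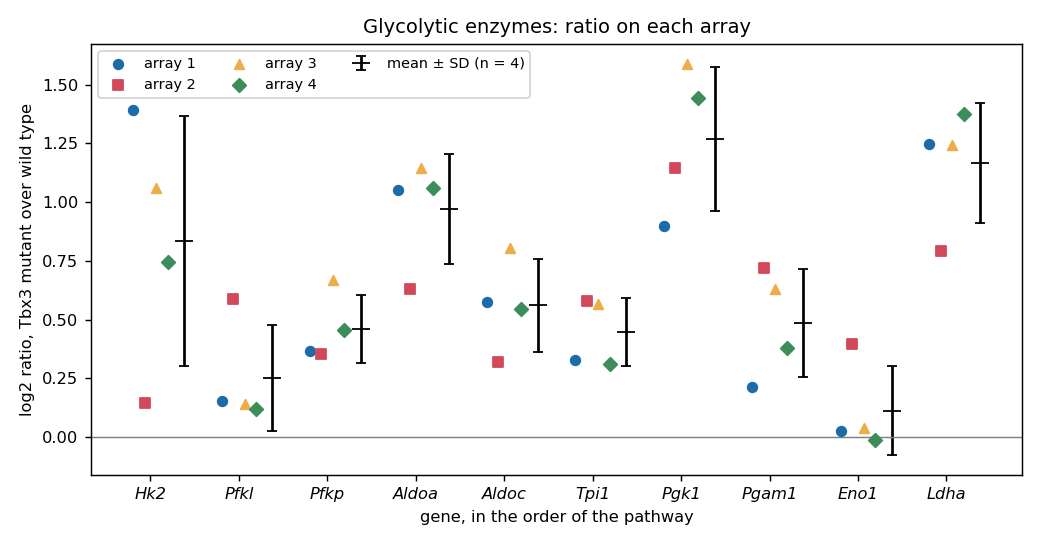
The vertical axis is the log2 ratio of mutant over wild type and the horizontal axis the 10 genes in pathway order. Coloured marks are the 4 arrays and black bars the mean ± SD (n = 4). On every array 9 genes lie above 0; Eno1 lies at 0.03, 0.40, 0.04 and -0.01, and array 2 (squares) is the lowest point for 5 genes and the highest for 4.

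Hk2 encodes hexokinase 2, the inducible muscle-type enzyme that phosphorylates glucose. Its log2 levels were 15.92, 14.98, 15.52 and 15.20 in the mutant pools of arrays 1 to 4, against 14.53, 14.83, 14.46 and 14.45 in the control pools. The groups did not overlap, but the gap between the lowest mutant and the highest control pool was only 0.14, set by array 2. The ratios were 1.39, 0.14, 1.06 and 0.75, with a mean of 0.84 ± 0.53 (SD, n = 4; limma adjusted p = 0.201). This was the widest spread of any member, and without array 2 the mean was 1.07 (adjusted p = 0.0487). Its probe (chr6:82750613-82750672, mm7, minus strand) has A, the mean log2 intensity of both channels, of 14.99, and among the 500 probes of other genes nearest in brightness 1 had a higher mean ratio. Those 500 span A of 14.65 to 15.33; near the bright end, where probes are few, 500 span far more, so the 50 nearest, a window chosen after seeing the data, are given too for bright members.

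Pfkl and Pfkp encode the liver and platelet isoforms of phosphofructokinase, which catalyses the committed step. Pfkl (probe at chr10:77642785-77642844, mm7, minus strand) had ratios of 0.15, 0.59, 0.14 and 0.12, a mean of 0.25 ± 0.22 (SD, n = 4; limma adjusted p = 0.343). The value rests on array 2: without it the mean was 0.14, and the mutant levels of 12.82 to 13.34 overlapped the control levels of 12.67 to 12.87. Pfkp had ratios of 0.37, 0.35, 0.67 and 0.46, a mean of 0.46 ± 0.14 (SD, n = 4; limma adjusted p = 0.143, and 0.0662 without array 2). Its mutant levels of 12.45 to 12.85 all lay above the control levels of 11.99 to 12.21, and 7 of the 500 probes nearest in brightness had a higher ratio. Pfkp was thus the steadier of the pair across arrays.

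The probe for Pfkp is printed with those of Ldha and Eno1 because each covers more of the genome than its own length, as a probe across an exon junction does, and holds an open reading frame. The 60 bases of each probe are given as the files list them, 5′ to 3′, with positions in build mm7, which span 2155, 226 and 930 bases in the order of the lines.
Pfkp, chr13:6475782-6477936, minus strand: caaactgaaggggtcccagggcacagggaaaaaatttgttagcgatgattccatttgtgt
Eno1, chr4:149233567-149233792, plus strand: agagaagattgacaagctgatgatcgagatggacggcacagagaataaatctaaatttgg
Ldha, second probe, chr7:43030257-43031186, plus strand: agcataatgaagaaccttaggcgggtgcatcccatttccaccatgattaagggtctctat
A second Pfkp probe gave 0.57, 0.25, 1.32 and 0.88, a mean of 0.76 ± 0.46 (SD, n = 4). The dimmest one gave 0.21 ± 0.17 (SD, n = 4). All 3 Pfkp probes were above 0 on all 4 arrays.

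Aldoa and Aldoc encode aldolases, of which the A form is the muscle and general isoform and the C form the brain isoform. Aldoa had log2 levels of 18.22, 17.78, 18.10 and 17.98 in the mutant pools, against 17.17, 17.15, 16.96 and 16.92 in the control pools. The groups were apart by 0.60. The ratios were 1.05, 0.63, 1.15 and 1.06, with a mean of 0.97 ± 0.23 (SD, n = 4; limma adjusted p = 0.0991, and 0.0304 without array 2). The Aldoa probe (chr7:122891843-122891902, mm7, minus strand) was the brightest of the members, at a mean log2 intensity A of 17.51. Of the 500 probes nearest in brightness, 10 had a higher ratio. Those spanned A of 15.55 to 17.84; among the 50 nearest (17.16 to 17.84) 6 were higher and the median was 0.61.

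Aldoc (probe at chr11:78408037-78408096, mm7, plus strand) had ratios of 0.57, 0.32, 0.80 and 0.54, a mean of 0.56 ± 0.20 (SD, n = 4; limma adjusted p = 0.139, and 0.0483 without array 2). Its probe was the dimmest of those that stand for a member, at A of 10.87, where the ratios of other genes centre on 0, and 11 of the 500 nearest probes were higher. The mutant levels of 10.77 to 11.35 overlapped the control levels of 10.45 to 10.80 by 0.04, although every array had the mutant pool above its own control. A second Aldoc probe, at A of 6.35, was well above background in only 2 mutant and 3 control channels and gave -0.02 ± 0.12 (SD, n = 4).

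Tpi1 encodes triose phosphate isomerase, which interconverts the products of aldolase. Its ratios were 0.33, 0.58, 0.57 and 0.31, with a mean of 0.45 ± 0.15 (SD, n = 4; limma adjusted p = 0.143; probe at chr6:124837320-124837379, mm7, minus strand). The mutant levels of 16.39 to 16.55 lay above the control levels of 15.86 to 16.09 by at least 0.30. Its probe is bright, at A of 16.22, and 76 of the 500 nearest probes (15.39 to 17.05) had a higher ratio, and 5 of the 50 nearest (16.13 to 16.31). Without array 2 the mean was 0.40 (limma adjusted p = 0.0774).

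Pgk1 encodes phosphoglycerate kinase, the first ATP-forming step. Its log2 levels were 17.19, 17.22, 17.39 and 17.30 in the mutant pools, against 16.29, 16.08, 15.80 and 15.86 in the control pools. The gap of 0.90 between the groups was the widest of the 10 genes, and the mutant pools lay closer together (SD 0.09) than the control pools (SD 0.22). The ratios were 0.90, 1.14, 1.59 and 1.44, with a mean of 1.27 ± 0.31 (SD, n = 4; limma adjusted p = 0.099, and 0.0449 without array 2). One probe of the 500 nearest in brightness (A of 15.54 to 17.75) was higher, and none of the 50 nearest (16.55 to 16.74). The Pgk1 probe (chrX:101530787-101530846, mm7, plus strand) was printed at 10 spots per array, whose ratios had an SD of 0.05 to 0.08 within an array. The spread of 0.31 between arrays was therefore several times that between spots. Pgk1 is X-linked, and the sex of the pooled embryos was not used here.

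Pgam1 encodes the general isoform of phosphoglycerate mutase. Its ratios were 0.21, 0.72, 0.63 and 0.38, with a mean of 0.49 ± 0.23 (SD, n = 4; limma adjusted p = 0.166; probe at chr19:41812247-41812306, mm7, plus strand). The mutant levels of 16.75 to 16.95 lay above the control levels of 16.17 to 16.54. At its brightness (A of 16.62) 103 of the 500 nearest probes (15.54 to 17.65) had a higher ratio, and 13 of the 50 nearest (16.53 to 16.71). Without array 2 the mean was 0.41 (limma adjusted p = 0.0996). Pgam1 thus sat well inside the range of its bright neighbours.

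Eno1 encodes the general isoform of enolase. Its ratios were 0.03, 0.40, 0.04 and -0.01, with a mean of 0.11 ± 0.19 (SD, n = 4; limma adjusted p = 0.615), and without array 2 the mean was 0.02. The mutant levels of 12.38 to 12.56 overlapped the control levels of 12.14 to 12.53. Of the 10 members Eno1 alone was not above 0 on every array, and 114 of the 500 nearest probes were higher. The gene rests on the single probe printed above.

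Ldha encodes the A subunit of lactate dehydrogenase. Its log2 levels were 17.72, 17.61, 17.84 and 17.85 in the mutant pools, against 16.48, 16.81, 16.60 and 16.47 in the control pools, with a gap of 0.79 between the groups. The ratios were 1.25, 0.79, 1.24 and 1.38, with a mean of 1.17 ± 0.26 (SD, n = 4; limma adjusted p = 0.0948, and 0.0262 without array 2). This was the smallest adjusted p of the members. Its probe (chr7:43031720-43031779, mm7, plus strand) was bright, at A of 17.17. One of the 500 nearest probes (15.55 to 17.84) was higher, and none of the 50 nearest (17.03 to 17.32). The probe printed above, at A of 16.19, gave 0.41, 1.03, 0.52 and 0.53, a mean of 0.62 ± 0.28 (SD, n = 4). Both Ldha probes were above 0 on all 4 arrays, but array 2 was the lowest for one and the highest for the other.

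**Figure D2:**
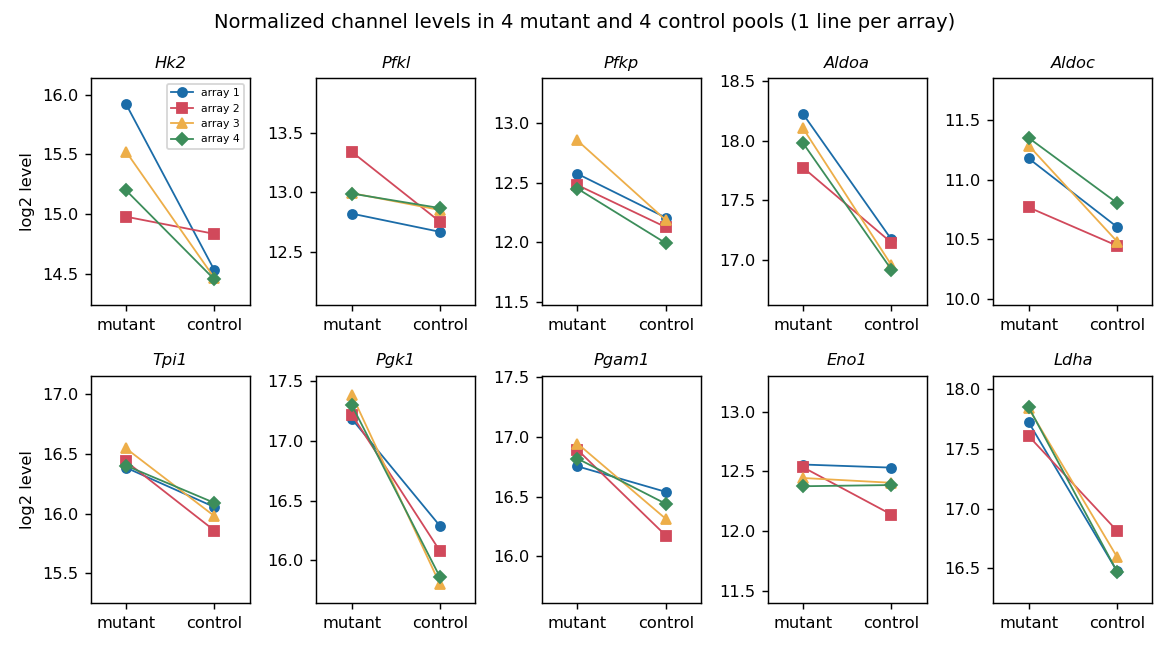
Each panel gives the log2 level of 1 gene in the mutant pool (left) and the control pool (right) of each array, joined by a line. All panels span the same range of log2 units. The mutant pools lie wholly above the control pools for Hk2, Pfkp, Aldoa, Tpi1, Pgk1, Pgam1 and Ldha, and overlap them for Pfkl, Aldoc and Eno1.

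**Figure D3:**
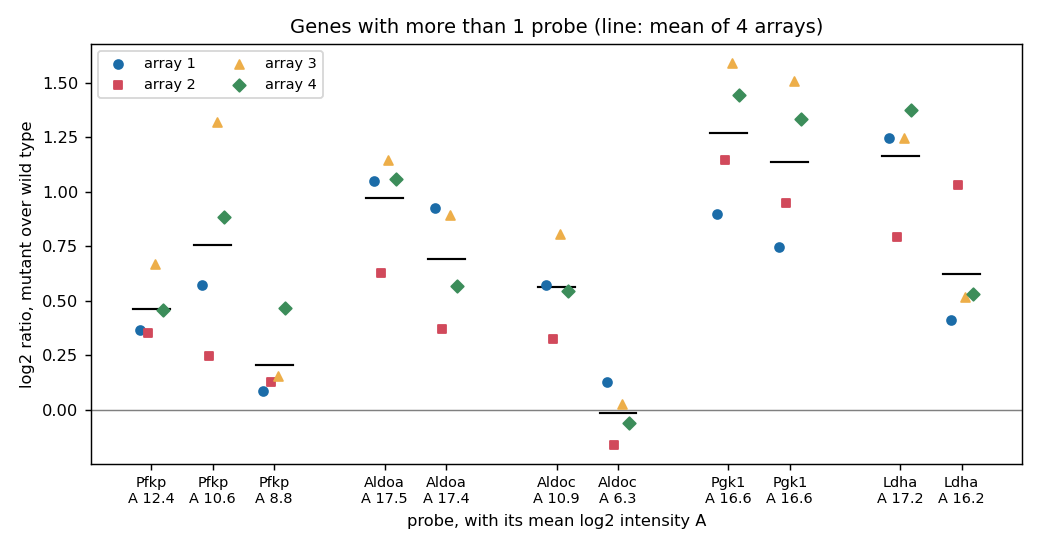
Log2 ratios of mutant over wild type for the 5 members with several probes, by probe, with the mean log2 intensity A under each; marks are arrays and lines the mean of 4 arrays. The Pgk1 probes lie at 1.27 and 1.13, the brighter Ldha probe lies above the dimmer one, and the dim second Aldoc probe lies at -0.02.

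Probes of one gene could be compared for 5 members. The second Pgk1 probe gave 1.13 ± 0.35 (SD, n = 4), but it shares a run of 38 bases with the first and is not independent of it. The second Aldoa probe gave 0.69 ± 0.27 (SD, n = 4) and shares a run of 27 bases with the first. The Ldha and Pfkp probes share no more than 6 bases within a gene. No member probe was saturated in either channel on any array. Several glycolytic genes have processed pseudogenes and close paralogs, and cross-hybridisation was not tested.

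The counts over the 10 genes read as follows against all genes. At an adjusted p under 0.05 in limma 0 members were called, against 0.00524% of all genes, the single gene being Tbx3. At an adjusted p under 0.1, 3 members (Aldoa, Pgk1 and Ldha) were higher in the mutant, against 0.0681% of all genes. At an unadjusted p under 0.05, 9 members were higher, against 7.1% of all genes. The ratio was above 0 on all 4 arrays for 9 members, against 12.3% of all genes. For 7 members all mutant levels lay above all control levels, against 3.98% of all genes. Without array 2, 5 members (Hk2, Aldoa, Aldoc, Pgk1 and Ldha) passed an adjusted p of 0.05 as higher in the mutant, against 0.681% of all genes. The members were chosen with earlier results of these data known, so these counts are a description and carry no test of the group.

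Brightness moved with the ratio. Of the 290 other genes with A above 16, 64.8% were higher in the mutant on all 4 arrays, with a median ratio of 0.33. Of the 74 with A above 17 the share was 82.4%, with a median of 0.57. Among those 290 genes 57.9% had all mutant levels above all control levels. Aldoa, Tpi1, Pgk1, Pgam1 and Ldha belong to this bright class, and Hk2, Pfkl, Pfkp, Aldoc and Eno1 do not. At an unadjusted p under 0.05, 56.9% of the 290 were higher. All 5 bright members met each of these 3 criteria, which most genes of their class met too. Of the 5 others, 4 had an unadjusted limma p under 0.05 as higher in the mutant, 4 were above 0 on all 4 arrays and 2 had all mutant levels above all control levels.

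**Figure D4:**
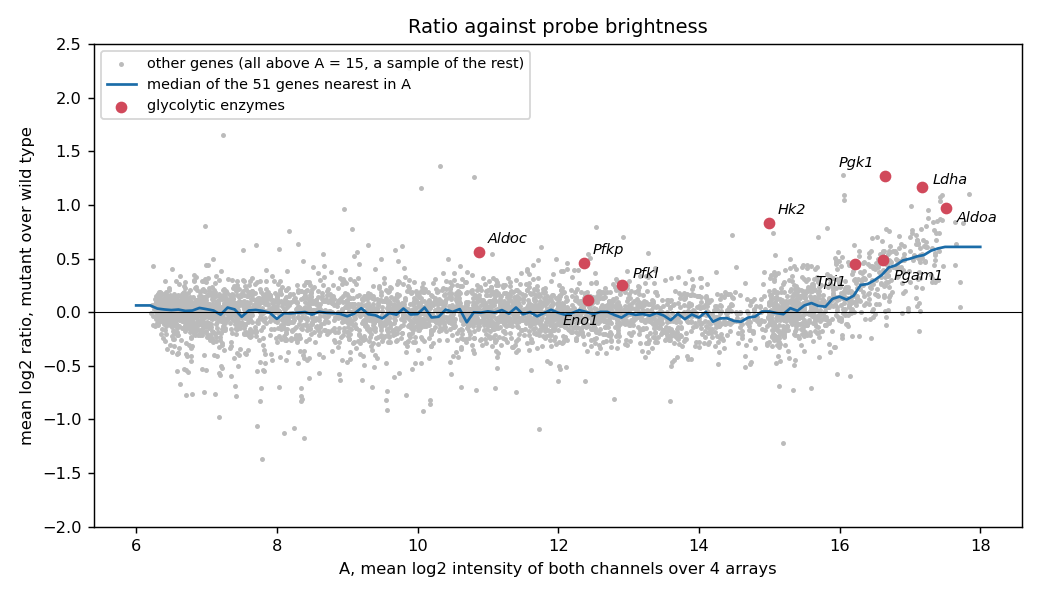
Mean log2 ratio of mutant over wild type against A, the mean log2 intensity of both channels. Grey points are other genes (each one above A of 15 and a sample of the rest), the blue line is the median of the 51 genes nearest in A, and red points are the 10 enzymes. The line stays near 0 below A of 15 and climbs to 0.61 at the bright end; Pgk1, Ldha and Hk2 lie farthest above it, and of the bright members Pgam1 lies closest to it.

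With the running median of the ratio over brightness taken off each array, the means separated the members as follows. Hk2, Pfkl, Pfkp, Aldoc and Eno1 moved by at most 0.03, to means of 0.86 ± 0.50, 0.28 ± 0.23, 0.48 ± 0.13, 0.55 ± 0.20 and 0.12 ± 0.21 (SD, n = 4 each). Pgk1 and Ldha came to 0.95 ± 0.45 and 0.60 ± 0.28 and stayed above 0 on all 4 arrays. Aldoa, Tpi1 and Pgam1 came to 0.35 ± 0.38, 0.24 ± 0.19 and 0.20 ± 0.31, with Aldoa at -0.06 on array 2 and Pgam1 at -0.21 on array 1. The second probes of Aldoa, Pgk1 and Ldha, bright too, came to 0.12 ± 0.24, 0.87 ± 0.44 and 0.41 ± 0.28 (SD, n = 4 each). After this step 7 members had an unadjusted limma p under 0.05 as higher in the mutant, against 6.37% of all genes. Likewise 7 members were above 0 on all 4 arrays, against 10.8% of all genes. None had an adjusted p under 0.1 in limma.

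The arrays differed in how far the members stood out. The median over the 10 genes was 0.47, 0.58, 0.74 and 0.50 on arrays 1 to 4, and 0.25, 0.38, 0.69 and 0.49 with the running median removed. Array 3 was thus the highest in both. Array 2 gave the lowest ratio for Hk2, Pfkp, Aldoa, Aldoc and Ldha and the highest for Pfkl, Tpi1, Pgam1 and Eno1.

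**Figure D5:**
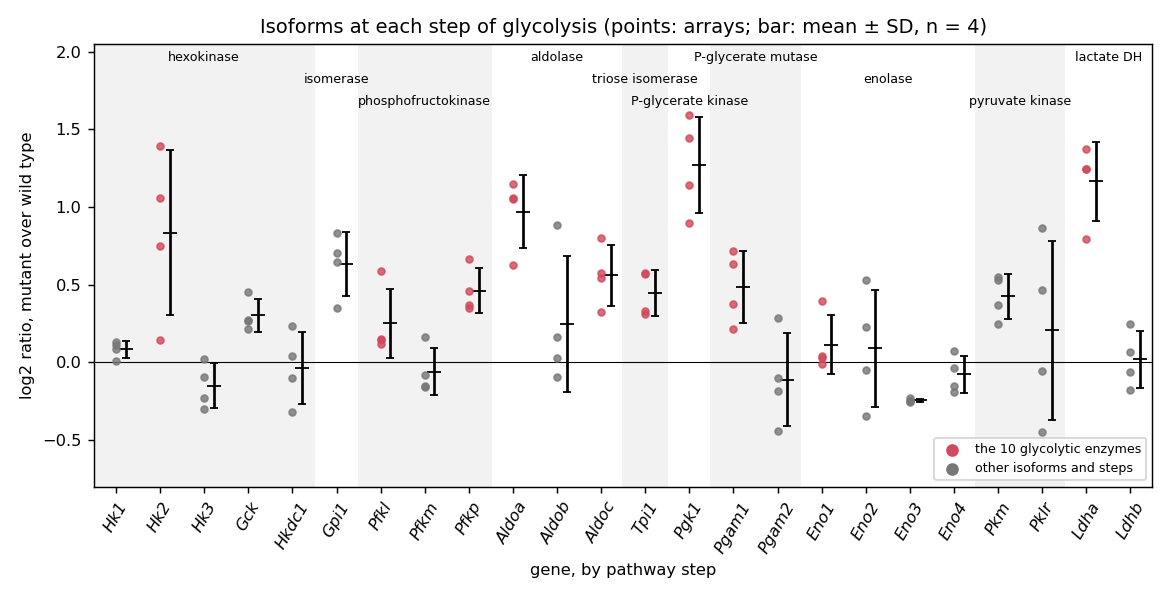
Log2 ratio of mutant over wild type for the measured isoforms at each step of glycolysis; points are arrays and bars the mean ± SD (n = 4), with the 10 enzymes in red and other enzymes in grey. At the steps of hexokinase, phosphofructokinase and lactate dehydrogenase Hk2, Pfkp and Ldha lie above Hk1, Pfkm and Ldhb, which lie within 0.1 of 0 on average.

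Of 21 further glycolytic genes listed, 17 were measured. No probe carried the name Gapdh. A dim probe under another name had the gene ID of Gapdh and was not used as Gapdh. Gapdhs, Pgk2 and Ldhc, which are known for expression in the testis, did not pass the filter. The median of the 17 measured genes was 0.02. The mean was positive for 10 of the 17, and 4 exceeded 0 on every array. Gpi1, glucose phosphate isomerase, had the largest ratio, at 0.70, 0.35, 0.83 and 0.64 with a mean of 0.63 ± 0.20 (SD, n = 4; limma adjusted p = 0.132, and 0.0388 without array 2). It too is bright, and its mean with the running median removed was 0.18 ± 0.19 (SD, n = 4). Pkm, pyruvate kinase of muscle, had 0.43 ± 0.14 (SD, n = 4; limma adjusted p = 0.143). Eno3, the muscle enolase, had the lowest mean, -0.24 ± 0.01 (SD, n = 4; limma adjusted p = 0.181), and was below 0 on all 4 arrays.

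Isoform partners of 3 members, named after their values were seen, stood near 0. Hk1, the general hexokinase, had 0.08 ± 0.05, Pfkm, the muscle phosphofructokinase, -0.06 ± 0.15, and Ldhb, the B subunit of lactate dehydrogenase, 0.02 ± 0.18 (SD, n = 4 each). Whether partner isoforms differ in ratio was not tested.

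Among 7 regulators of the phosphofructokinase step, all measured, the median was 0.14 and none passed an adjusted p of 0.1 in limma. Pfkfb3, which makes the activator fructose 2,6-bisphosphate, had ratios of 1.26, 0.26, 0.68 and 0.53 with a mean of 0.68 ± 0.42 (SD, n = 4; limma adjusted p = 0.201). As for Hk2, array 1 was its highest and array 2 its lowest. Pfkfb4 had 0.39 ± 0.30 (SD, n = 4), and Fbp1, which runs the step backwards, had the lowest mean of the list, -0.14.

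Pathways that branch from or follow glycolysis had medians close to that of all genes. No gene of theirs passed an adjusted p of 0.1 in limma on the 4 arrays. In the glycogen and glycerol branches (11 of 12 genes measured) the median was 0.01, with Gbe1, the glycogen branching enzyme, at 0.36, Pygl, the liver glycogen phosphorylase, at 0.33, and the glycerol phosphate dehydrogenase Gpd1 lowest at -0.26. In the pentose phosphate branch (6 of 7 genes measured) the median was -0.07, Rpe and Pgd stood highest at 0.04 and 0.02, and G6pdx, its entry enzyme, was lowest at -0.27. In pyruvate dehydrogenase and the citric acid cycle (24 of 24 genes measured) the median was 0.07, with 8 genes above 0 on all 4 arrays and 6 higher at an unadjusted limma p under 0.05. Mdh2, mitochondrial malate dehydrogenase, had the largest ratio there, 0.52 ± 0.09 (SD, n = 4), but it is as bright as Ldha, and its mean with the running median removed was -0.01. Cs, citrate synthase, had 0.42 ± 0.10 (SD, n = 4) and Dld was lowest at -0.16. Without array 2 no gene of these pathways passed an adjusted limma p of 0.05, but several were under 0.1. Among them were Mdh2 (0.0551), Gbe1 (0.0572), Cs (0.0692) and Pygl (0.0829) as higher in the mutant. The muscle glycogen phosphorylase Pygm (0.0704) was among them as lower. Over all genes tested, 1543 were under 0.1 in that fit.

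Markers of several cell types moved with the arrays. In these pools, fewer cells of a type and less RNA per cell cannot be told apart. All 5 myocardial markers had a positive mean, with per-array medians of 0.21, 0.87, 0.74 and 0.31, and their summed level was 668954 to 797013 in mutant pools, against 395752 to 560726 in control pools. Of 5 erythroid markers, 4 had a positive mean, with medians of 1.97, 0.99, -0.22 and 0.11 and sums of 699687 to 1068788 in mutant pools, against 258645 to 660840 in control pools. The myocardial probes had A of 15.91 to 17.43 and the globin probes 17.39 to 17.84. At such brightness other genes leaned towards the mutant too. With the running median removed, the median of the gene means fell from 0.57 to 0.20 for the myocardial list. For the erythroid list it fell from 0.84 to 0.315. Hk2 had ratios of 1.39, 0.14, 1.06 and 0.75 on arrays 1 to 4. Whether they follow those of any marker list was not tested. None of 6 cushion mesenchyme markers had a positive mean, with medians of -0.29, -1.22, -0.53 and -0.39 and sums of 80898 to 85549 in mutant pools, against 103641 to 495919 in control pools. None of 5 leukocyte markers did, with medians of 0.16, -1.997, -0.08 and -0.16 and sums of 7422 to 10220 in mutant pools, against 9269 to 40727 in control pools. Of the 3 chamber markers, Nppa and Nppb had a positive mean and Gja5 a mean of -0.11. The list had medians of 1.38, 0.13, 2.06 and 1.45. Its sums were 61193 to 220046 in mutant pools, against 51018 to 69130 in control pools. The 4 markers of the canal itself (Tbx2, Bmp2, Msx2 and Tbx3) were well above background in both channels on all 4 arrays. Of these only Tbx2 had a positive mean; the medians were -0.55, 0.35, -0.58 and -0.44, and the sums 12395 to 16642 in mutant pools, against 24035 to 26675 in control pools. Without array 2, Tbx3, Msx2 and the cushion marker Postn passed an adjusted limma p of 0.05 as lower in the mutant. In the same fit the chamber markers Nppa and Nppb and the myocardial marker Myl7 passed it as higher. The endocardial, epicardial and skeletal muscle lists had medians of the gene means of 0.07, 0.12 and 0.06. Their single genes had means from -0.16 to 0.49, and none passed an adjusted p of 0.1 in limma. The part of any of these cell types in the glycolytic ratios was not tested.

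The 8 genes whose 4 array ratios lay nearest to the median profile of the members were NM_001013789, Izumo4, Mybpc3, Cyp26b1, NAP055718-1, Zswim5, Myl6 and Tnnt2. Their root mean square distance over the 4 arrays was 0.04 to 0.10 log2 units. The members themselves lay farther from that profile, from 0.13 for Pfkp to 0.73 for Pgk1. Mybpc3, Myl6 and Tnnt2 encode contractile proteins, and their probes had A of 17.36, 17.20 and 17.14. Tnnt2 had 0.37, 0.73, 0.74 and 0.57, and Myl6 had the smallest spread of the 8, 0.62 ± 0.04 (SD, n = 4).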

How the data were processed

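RNA of 4 mutant and 4 control pools was compared on 4 Agilent arrays of 45018 spots, all on 1 slide and in 1 scan per the file headers, so neither could be tested as a batch. Linear amplification preceded labelling, per the labels' protocols. The deposited files hold, per the file headers, each spot's mean intensity and local background median from Agilent Feature Extraction 9.5.1 (also named in the submitters' processing notes). The authors' deposited log10 ratio of red over green, dye-normalized by the scanner software per the file headers, served as an alternative. Values of the deposited series table matched that log10 ratio within 5e-07, and each column's median was 0. The mutant channel is red, per the labels.

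From these, normexp (offset 50) and within-array loess with control spots at weight 0 were applied in limma 3.58.1 (R 4.3.3). Spots flagged non-uniform were dropped, and repeat spots of a probe averaged. The filter kept 28794 of 41174 probes, those that 3 or more arrays flagged as well above background in either channel. The brightest probe by A stood for each of 19091 genes. Of all probes, 22951 were named by accession in a RefSeq table, 6659 by current symbol and 3109 by synonym, and 8455 kept the file's name. Mutant over control log2 ratios were set against 0 by lmFit and eBayes (2-sided), adjusted by Benjamini-Hochberg over all genes; every adjusted p comes from limma. Each array pairs a mutant with a control pool, so pairing comes from the array itself, and n = 4. The smallest 2-sided p that sign flips of 4 arrays allow is 0.125. Levels were taken after Aquantile scaling and are compared within a probe, except in the marker sums. Those sums add unlogged levels over the probes of a list, so the brightest probes weigh most. A, the mean log2 intensity of both channels, measures brightness; the running median over A was taken per array.

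Named were all members and their probes, Tbx3 and the 8 genes nearest in profile. In each pathway list any gene under an adjusted p of 0.1 on the 4 arrays, or else the 2 highest and the lowest, was named. Hk1, Pfkm, Ldhb, Msx2, Gja5, Nppa, Nppb, Myl7, Postn and Pygm were named after their values were seen. The members and all lists were chosen with earlier results of these data known. Positions are those of mm7 as the files give them; no annotation of that build was used, and promoters come from GRCm38.p6.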

Additional observations from a re-analysis of the deposited data

Results flagged for a closer look

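In 2 genes 1 array lay far from the other 3, each time array 2. The log2 ratio of Pfkl was 0.59 on array 2, against 0.12 to 0.15 on the other arrays. That of Eno1 was 0.40 on array 2, against -0.01 to 0.04. Of 36 groups of 4 values examined, 2 were marked in this way. The nominal rate of the rule by chance alone is about 1 in 20, which was not computed from these data.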

How the results depend on the processing

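All 10 members kept a positive mean under each of the 16 alternatives, and the median over them stayed between 0.41 and 0.57 except with median centring in place of loess, where it was 1.24. That setting also called all 10 members and 7772 genes (10 and 10192 at an adjusted p under 0.1), of which 7202 called genes were higher in the mutant. Against 3 members and 26 genes at an adjusted p under 0.1 on 4 arrays, the scanner's log ratio gave 0 and 7 (3 genes called at 0.05), an offset of 16 gave 0 and 8 (0 called), the average of all probes gave 0 and 0 (0 called), and removal of the running median gave 0 and 1. Without a dim filter 1 member remained under 0.1, and without background correction 0 genes were called. Leaving out 1 array gave 0 to 5 members called, 0 to 8 under 0.1, 0 to 193 genes called and 0 to 1543 under 0.1; every nonzero count came from leaving out array 2. With array 2 left out and the running median removed, 5 members were under 0.1 and none was called, with 72 genes called and 1164 under 0.1. With no replicate block, that is with the channels compared as unpaired pools, 4 members (Aldoa, Tpi1, Pgk1 and Ldha) and 186 genes were called, and 6 and 364 were under 0.1. Leaving out saturated spots, keeping non-uniform spots and a stricter dim filter moved no count of members. The cause of these shifts was not tested. With 4 arrays, 1 dye orientation and pooled hearts, the number of arrays limits the precision; all probes that stand for a member were well above background in both channels.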
